A study of Mus musculus with 4 samples.

Results

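The genes described here are 9 interferon-induced genes in sorted mouse haematopoietic stem cells (HSC): the Ifitm genes Ifitm1, Ifitm2 and Ifitm3, taken as constitutive, and Ifi27l2a, Ifit1, Ifit3, Isg15, Irf7 and Rsad2, taken as inducible. They were chosen by name, as 9 of 24411 gene rows, and all 9 had UMIs in every library. Bone marrow cells of mice labelled Mat KO (2 libraries, 44 and 48 cells) were set against those of wildtype mice, written WT (2 libraries, 48 cells each). The study concerns small nucleolar RNAs of the imprinted Dlk1-Gtl2 locus in HSC self-renewal, and the labels give neither what the Mat KO allele removes, nor in which cells, nor the age of the mice. Single sorted cells were picked and their polyadenylated RNA was tagged near the 3′ end with 1 barcode for each cell and a molecular identifier (UMI). The 188 barcodes in which 1000 or more genes were detected are treated as cells.

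Interferons are secreted alarm proteins that bind cell-surface receptors, activate Janus kinases and STAT factors, and switch on many antiviral genes. Many of these genes carry an interferon-stimulated response element, a paired GAAA motif bound by STAT and IRF factors, near their start. Stem cells of many tissues are known to keep some of these genes, the Ifitm family among them, active without interferon, and HSC respond to interferon by entering the cell cycle. Ifitm1, Ifitm2 and Ifitm3 encode membrane proteins that block the entry of viruses. Ifit1 and Ifit3 encode partner proteins of a complex that binds viral RNA, Isg15 a ubiquitin-like modifier, and Rsad2 (viperin) an enzyme that makes an antiviral nucleotide. Irf7 encodes a transcription factor that amplifies the response, and Ifi27l2a a small membrane protein of the Ifi27 family.

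The promoter sequences show how the constitutive and inducible genes compare at the response element. Each is the 250 bases before the RefSeq transcription start (GRCm38.p6), on the strand of the gene, and capitals mark matches to GAAANNGAAA or its reverse complement TTTCNNTTTC. Ifit1 lies on the plus strand at chr19:34640639-34640888, Isg15 on the minus strand at chr4:156200819-156201068, Ifitm2 on the minus strand at chr7:140955962-140956211 and Ifitm1 on the plus strand at chr7:140967826-140968075.
Ifit1: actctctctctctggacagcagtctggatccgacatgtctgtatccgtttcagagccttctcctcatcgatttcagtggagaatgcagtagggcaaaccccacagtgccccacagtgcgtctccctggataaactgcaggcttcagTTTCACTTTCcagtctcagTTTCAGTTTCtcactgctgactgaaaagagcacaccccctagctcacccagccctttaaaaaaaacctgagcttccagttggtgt
Isg15: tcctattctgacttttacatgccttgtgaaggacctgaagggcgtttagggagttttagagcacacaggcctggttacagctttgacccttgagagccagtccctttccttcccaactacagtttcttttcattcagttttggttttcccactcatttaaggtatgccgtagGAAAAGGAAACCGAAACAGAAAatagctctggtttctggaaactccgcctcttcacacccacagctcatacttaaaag
Ifitm2: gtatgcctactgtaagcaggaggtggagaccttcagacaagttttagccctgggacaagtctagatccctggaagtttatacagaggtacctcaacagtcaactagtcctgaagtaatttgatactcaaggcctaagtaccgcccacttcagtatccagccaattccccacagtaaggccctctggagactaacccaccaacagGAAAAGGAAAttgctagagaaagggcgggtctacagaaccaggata
Ifitm1: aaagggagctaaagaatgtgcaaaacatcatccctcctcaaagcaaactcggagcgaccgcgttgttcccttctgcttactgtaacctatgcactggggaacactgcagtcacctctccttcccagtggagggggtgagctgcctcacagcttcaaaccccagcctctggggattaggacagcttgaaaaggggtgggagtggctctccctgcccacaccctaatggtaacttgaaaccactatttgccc
Ifit1 had 2 matches, starting at positions -104 and -85 from the start, and Isg15 had 3 overlapping matches from -78. Ifitm2 had 1 match at -46 and Ifitm1 had none in the window. Windows of 8 of the 9 genes were found in RefSeq, and Ifi27l2a was not among them. Over 300 bases, from 250 before to 50 after the start, 3.44% of 32851 windows held a match. Ifit3 had 2 matches (-156 and -122), Rsad2 had 1 (-120), Ifitm3 had 2 after the start (positions 3 and 20, not printed), and Irf7 had none. Ifitm1, Ifitm2 and Ifitm3 lie within 55.9 kb of chromosome 7. Ifit1 and Ifit3 lie in the Ifit cluster of chromosome 19, with Ifit3b between them, Rsad2 and Ifi27l2a are on chromosome 12, Isg15 is on chromosome 4 and Irf7 is on chromosome 7. All 9 are protein coding in the GENCODE annotation of GRCm38.

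The 4 libraries differed in depth and in the cells they held. They summed to 1900319 and 1768647 UMIs in Mat KO and to 3183279 and 3253608 UMIs in WT. Meg3, a noncoding RNA of the locus, had 35 and 58 UMIs in Mat KO against 168 and 153 UMIs in WT, and its 3′ tag checks nothing if it lies outside the deleted part. Rare spike-in RNAs gave 5.18 to 7.34 UMIs per cell in which they were seen, so UMIs over-counted molecules. Thinning to equal depth, used below, treats each UMI as a molecule, so its shares carry this error. The intervals below are of cells with a UMI and leave out the spread between libraries. Barcodes without cells held 4 Ifitm UMIs and 0 UMIs of the inducible genes among 3947 UMIs. All 4 libraries used the same barcode set, and 44 barcode positions held a kept cell in every library. The label of stem cells was checked against 17 stem markers (Ly6a, itself induced by interferon, was left out). Cells with at least 3 of these markers and at least 0.1% of their UMIs in them are called stem-marker cells, a class defined after the data were seen. The Mat KO libraries held 29 and 38 of them and the WT libraries 41 and 37, which makes 145 of 188. The share is a range and not a type: 8 cells lay between 0.05% and this limit. The 43 other cells held 0.0477% to 1.15% of their UMIs per library in granulocyte or monocyte markers and 0.179% to 0.795% in B-lymphoid markers, against at most 0.0814% and 0.0103% in stem-marker cells. Per library, 15 and 10 other cells were in Mat KO, against 7 and 11 in WT.

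The Ifitm genes were present in nearly every cell. At least 1 Ifitm UMI was found in 187 of 188 cells and all 3 genes in 172, while 130 cells had any UMI of the 6 inducible genes. Ifitm1 had 931 and 1173 CPM (UMIs scaled to a fixed total for each library's kept cells) in Mat KO libraries, against 1495 and 1078 CPM in WT libraries, which overlap. Ifitm2 had 494 and 556 CPM in Mat KO libraries against 635 and 574 CPM in WT, a small non-overlapping gap. Ifitm3 had 902 and 930 CPM in Mat KO libraries against 840 and 863 CPM in WT. By edgeR's quasi-likelihood test on the 4 library sums with Benjamini-Hochberg adjustment over 10663 genes, none of the 3 passed. Their log2 fold changes (Mat KO over WT) were -0.26 for Ifitm1 (SE 0.23, adjusted p = 0.840), -0.17 for Ifitm2 (SE 0.23, adjusted p = 0.914) and 0.14 for Ifitm3 (SE 0.20, adjusted p = 0.922). The Ifitm3 estimate was negative at equal depth, in lineage-low cells, in stem-marker cells and without the leading cells, and the Ifitm1 estimate was 0.06 in stem-marker cells. Unadjusted p was 0.282, 0.468 and 0.513 for Ifitm1, Ifitm2 and Ifitm3 in the same fit.

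The inducible genes were low and sparse, all 6 had higher values in both Mat KO libraries, and 1 of them, Ifit1, passed the test. Markers of some other cell types were also higher in both Mat KO libraries. The 15 granulocyte or monocyte markers held 0.472% and 0.413% of UMIs in Mat KO libraries, against 0.124% and 0.0533% in WT libraries. Of these markers, 2 and 2 were at 0 in Mat KO libraries, against 0 and 3 in WT libraries. The 7 T and NK markers held 0.0285% and 0.00876% in Mat KO libraries, against 0.00138% and 0.00765% in WT libraries. Of these, 2 and 4 were at 0 in Mat KO libraries, against 4 and 2 in WT libraries. Ccl5, in this list, had 313 UMIs in barcode 22 of Mat KO replicate 1 and 92 UMIs in barcode 47 of Mat KO replicate 2. These cells also had 49 and 348 Ifit1 UMIs. B-lymphoid markers held 0.162% and 0.1414% in Mat KO against 0.1405% and 0.0664% in WT. Dendritic markers held 0.0248% and 0.0364% in Mat KO against 0.0172% and 0.0221% in WT. Erythroid markers went the other way, with 0.0704% and 0.0671% in Mat KO against 0.111% and 0.185% in WT. So did megakaryocyte markers, with 0.0237% and 0.0336% in Mat KO against 0.0454% and 0.0431% in WT. The part of cells with such markers in the result was not tested. Lineage-low cells have under 1% of UMIs in the granulocyte or monocyte, B-lymphoid, T and NK or erythroid list. Among them Ifit1 had a log2 fold change of 4.60 (edgeR adjusted p = 0.00179). They held 148 of the 148 and 368 of the 369 Ifit1 UMIs of the Mat KO libraries, so that fit left nearly all of these UMIs in. Only 8 of 10663 genes passed, 0.075%, all higher in Mat KO, and 1 of 9 genes described here did so. All 9 passed the filter on low counts. Ifit1 had 148 and 369 UMIs (77.9 and 209 CPM) in Mat KO libraries, against 21 and 23 UMIs (6.60 and 7.07 CPM) in WT libraries. The groups did not overlap, and the log2 fold change was 4.42 (SE 0.57, n = 2 libraries each, edgeR adjusted p = 0.0142). The call held when any 1 library was left out, and was lost among cells with at least 2000 genes (log2 fold change 4.19, adjusted p = 0.174). Ifit3 had 58 and 72 UMIs in Mat KO against 1 and 12 UMIs in WT, with a log2 fold change of 4.15 (SE 1.05, edgeR adjusted p = 0.293). Rsad2 had 223 and 116 UMIs (117 and 65.6 CPM) in Mat KO against 36 and 55 UMIs (11.3 and 16.9 CPM) in WT. Its log2 fold change of 2.72 (SE 0.52) did not pass (edgeR adjusted p = 0.119).

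Isg15 had 15.3 and 23.2 CPM in Mat KO libraries against 2.51 and 6.45 CPM in WT libraries, with a log2 fold change of 2.12 (SE 1.03, edgeR adjusted p = 0.669). Irf7 had 59.5 and 28.8 CPM in Mat KO libraries against 11.6 and 13.5 CPM in WT, with a log2 fold change of 1.83 (SE 0.66, edgeR adjusted p = 0.557). Ifi27l2a had 154 and 407 CPM in Mat KO libraries against 61.3 and 19.7 CPM in WT, with a log2 fold change of 2.83 (SE 0.56, edgeR adjusted p = 0.128). For all 6 inducible genes both Mat KO libraries lay above both WT libraries, and for the Ifitm genes this held for Ifitm3 alone. Over all genes tested, 17.8% had both Mat KO libraries above both WT libraries. The median log2 fold change was 2.78 over the 6 inducible genes, -0.17 over the 3 Ifitm genes and -0.01 over all genes tested. In such library sums, more cells with a transcript and more transcript per cell cannot be told apart.

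**Figure D1:**
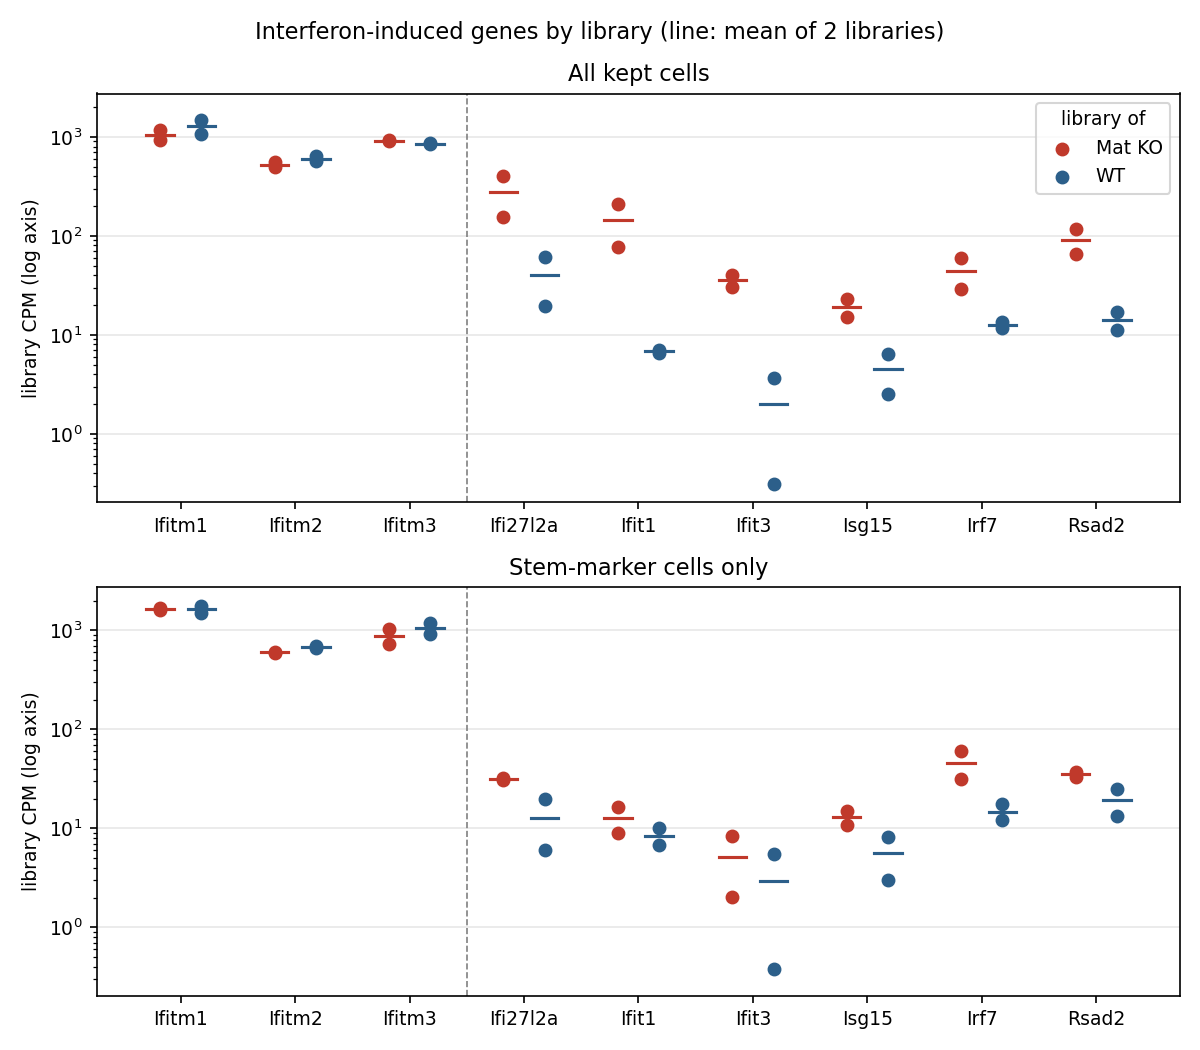
CPM of the 9 genes on a log axis, one point for each library and a line at the mean of 2 libraries, for all kept cells (upper panel) and for stem-marker cells (lower panel). In all kept cells the 6 inducible genes of Mat KO libraries lie above those of WT libraries, and the Ifitm genes of both genotypes lie between 494 and 1495 CPM.

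Most Ifit1, Ifit3 and Rsad2 UMIs of the Mat KO libraries sat in 1 cell of each library. A single cell held 348 of the 369 Ifit1 UMIs of Mat KO replicate 2 (94.3%), and another held 89 of the 148 of Mat KO replicate 1 (60.1%). The same 2 cells held 84.7% and 60.3% of the Ifit3 UMIs and 64.7% and 81.6% of the Rsad2 UMIs of their libraries. In WT replicates 1 and 2 the leading cell of Ifit1 held 81.0% and 87.0%, with 17 and 20 UMIs. For Ifitm1 and Ifitm2 the leading cell held 8.53% to 14.7% in every library of either genotype. For Ifitm3 it held 29.5% and 38.7% in Mat KO against 9.50% and 9.79% in WT. The leading cell of each gene was then removed from that gene's count in every library. None of 9181 genes tested then passed edgeR's test, and 740 had an unadjusted p under 0.05. Library totals in that fit were those of the reduced counts, while the CPM that follow keep the full totals. Ifit1 then had 31.0 and 11.9 CPM in Mat KO libraries against 1.26 and 0.922 CPM in WT, a log2 fold change of 4.34 (SE 1.08, edgeR adjusted p = 0.338). Ifit3 then had 12.1 and 6.22 CPM in Mat KO and 0 UMIs in both WT libraries. Rsad2 then had 21.6 and 23.2 CPM in Mat KO libraries, against 7.23 and 8.61 CPM in WT libraries. The fitted log2 fold changes of all 6 inducible genes were still above 0, but Ifi27l2a overlapped, with 31.0 and 253 CPM in Mat KO libraries against 38.6 and 11.4 CPM in WT libraries.

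**Figure D2:**
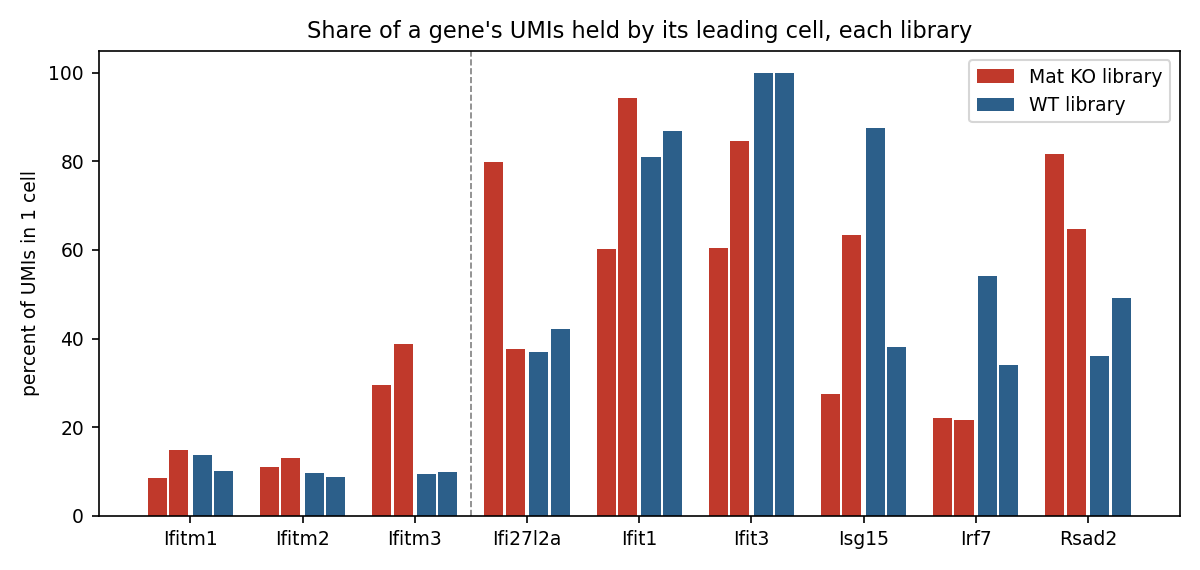
Percent of a gene's UMIs that its leading cell held, one bar for each library (replicate 1 left of replicate 2 within a genotype). Bars of Ifitm1 and Ifitm2 stay at 14.7% or below, while Ifit3 reaches 100% in both WT libraries, where it had 1 and 12 UMIs.

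The cells that led the inducible genes differed in their other transcripts. The cell with 348 Ifit1 UMIs (barcode 47 of Mat KO replicate 2) also had 61 Ifit3, 26 Isg15 and 75 Rsad2 UMIs but 7 Ifitm UMIs among 71290. It held 0.0365% of its UMIs in stem markers and 0.144% in T and NK markers. Ccl5, a chemokine gene in the T and NK list, had 92 UMIs in this cell. Its leading genes over other cells included the interferon-induced Ifit2 (192 UMIs) and Cxcl10 (346 UMIs) and the MHC class II gene H2-Aa (115 UMIs). Cpa3 (86 UMIs) and the T cell factor gene Tcf7 (56 UMIs) were also among them. The leading cell of Mat KO replicate 1 (barcode 4) had 182 Rsad2, 89 Ifit1, 35 Ifit3 and 25 Irf7 UMIs and 33 Ifitm UMIs among 12292. Its leading genes were the neutrophil gene Retnlg (265 UMIs), the interferon-induced Cmpk2 (87 UMIs) and the cytokine gene Il1b (29 UMIs). A further cell of that library (barcode 22) had 49 Ifit1, 19 Ifit3 and 17 Irf7 UMIs and 4 Ifitm UMIs. It held 0.753% of its UMIs in T and NK markers. It was led by Cxcl10 (227 UMIs), Ccl5 of that marker list (313 UMIs) and the NK receptor gene Klra7 (83 UMIs). All 3 cells lay outside the stem-marker class and counted as lineage-low.

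In WT replicate 2 a stem-marker cell (barcode 40) had 20 Ifit1, 12 Ifit3 and 27 Rsad2 UMIs together with 185 Ifitm UMIs. In WT replicate 1 a stem-marker cell (barcode 25) had 17 Ifit1 and 10 Rsad2 UMIs with 656 Ifitm UMIs. At barcode 47, Mat KO replicate 1 held 8 of its 148 Ifit1 UMIs and 7 of its 223 Rsad2 UMIs, and whether RNA or reads passed between libraries was not tested. Over the inducible genes, 6 distinct cells led a gene in Mat KO libraries, 2 of them stem-marker cells, against 10 cells in WT libraries, 8 of them stem-marker cells. Ifi27l2a had other leading cells, several with markers of another lineage. It reached 271 UMIs in a B-lymphoid marker cell and 209 in a granulocyte or monocyte marker cell of Mat KO replicate 2, 234 in a granulocyte or monocyte marker cell of Mat KO replicate 1, and 72 in such a cell of WT replicate 1. In WT replicate 2 its leading cell (barcode 21) had 27 of 64 UMIs and was lineage-low, with 0.120% of UMIs in B-lymphoid markers. Lineage-low cells of Mat KO replicate 2 at barcodes 41 and 37 had 114 and 53 Ifi27l2a UMIs, with 0.894% and 0.948% in B-lymphoid markers.

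**Figure D3:**
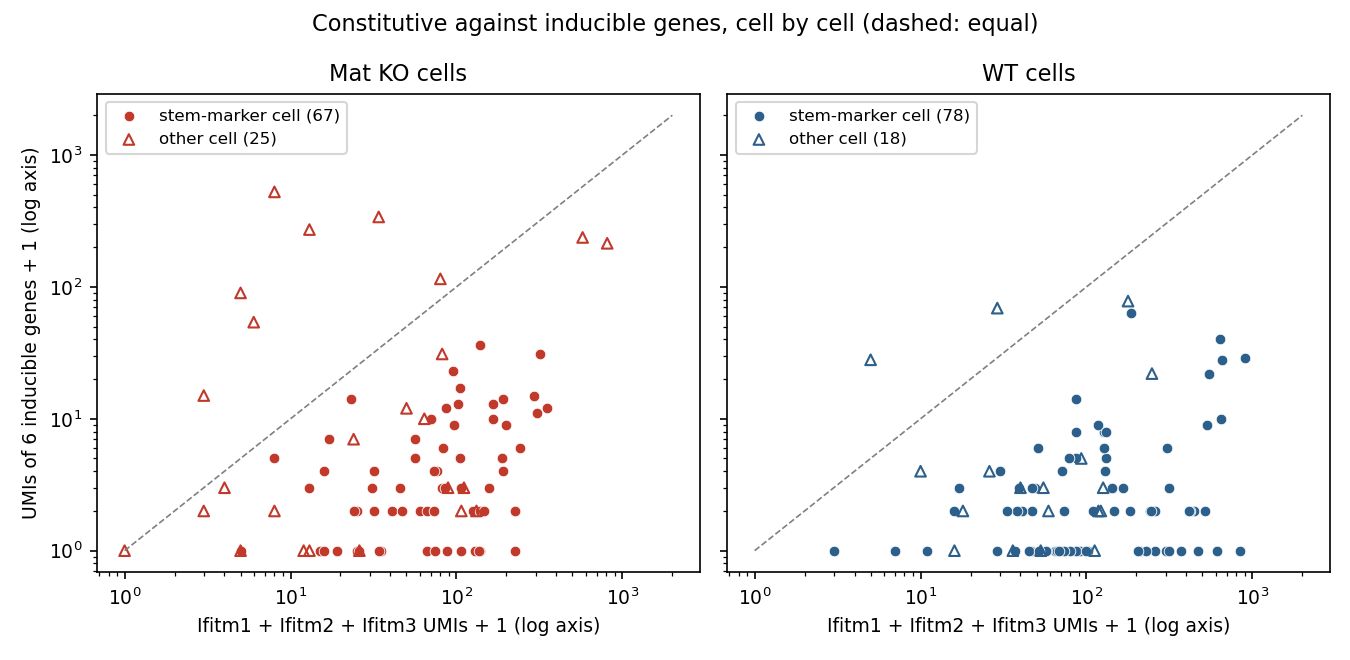
UMIs of the 6 inducible genes against UMIs of the 3 Ifitm genes in each cell, with 1 added, on log axes, for 92 Mat KO cells and 96 WT cells; filled circles are stem-marker cells and open triangles other cells. In 9 cells, all of them open triangles, the inducible genes exceed the Ifitm genes.

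The balance of the 2 gene groups differed between genotypes and between cell classes. UMI counts of this 3′ assay were compared between genes without dividing by transcript length. Per library the Ifitm genes had 5.12 and 3.44 UMIs for each inducible UMI in Mat KO, against 31.7 and 37.4 in WT. On the log2 scale the ratio of inducible over Ifitm UMIs was -2.07 ± 0.41 in Mat KO and -5.11 ± 0.17 in WT (SD, n = 2 libraries each). In stem-marker cells it was -4.45 ± 0.03 in Mat KO and -5.74 ± 0.29 in WT (SD, n = 2 libraries each), a difference of 1.29 in place of 3.04. With the lower limit of 0.05% for that class the difference was 1.81, and 1.35 without barcode 48 of Mat KO replicate 2, a granulocyte or monocyte marker cell that the lower limit adds. The ratio exceeded 1 in 9 cells, 7 of Mat KO and 2 of WT, and in none of the 145 stem-marker cells. Without the leading cell of each gene, the genotype difference in the log2 ratio was 2.70 in all kept cells and 1.88 in stem-marker cells. In lineage-low cells the difference was 3.21. These sums over chosen genes were not tested.

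By genotype, Ifit1 did not pass the test in stem-marker cells alone. Ifit1 had 9 and 20 UMIs (9.01 and 16.6 CPM) in Mat KO stem-marker cells, against 18 and 22 UMIs (6.81 and 10.1 CPM) in WT stem-marker cells, and the groups overlapped. The log2 fold change was 0.65 (SE 1.19, edgeR adjusted p = 0.962). Single cells held 8 of 9 and 6 of 20 of these UMIs in Mat KO, and 17 of 18 and 20 of 22 in WT. Without them 1 and 14 UMIs (1.00 and 11.6 CPM) were left in Mat KO, against 1 and 2 UMIs (0.378 and 0.919 CPM) in WT, which was not tested. At equal depth the expected share of stem-marker cells with Ifit1 was 3.86% and 14.0% in Mat KO, against 2.24% and 3.31% in WT. Of all genes, 14.2% did not overlap in that direction. Irf7 had 60.1 and 31.5 CPM in Mat KO stem-marker cells against 12.1 and 17.5 CPM in WT stem-marker cells, a log2 fold change of 1.67 (SE 0.76, edgeR adjusted p = 0.663). Rsad2 had 37.0 and 33.2 CPM in Mat KO stem-marker cells against 13.2 and 25.3 CPM in WT stem-marker cells, a log2 fold change of 0.91 (SE 0.77, edgeR adjusted p = 0.891). Ifi27l2a had 31.0 and 32.4 CPM in Mat KO stem-marker cells against 19.7 and 5.98 CPM in WT stem-marker cells, and Isg15 had 15.01 and 10.8 CPM in Mat KO stem-marker cells against 3.03 and 8.27 CPM in WT stem-marker cells. With the lower limit of 0.05% the log2 fold change of Ifi27l2a was 3.15 (edgeR adjusted p = 0.503) in place of 1.35. Barcode 48 held 209 of the 248 Ifi27l2a UMIs of Mat KO replicate 2 there, and without it that library had 31.0 CPM in place of 174 CPM. In stem-marker cells Irf7, Rsad2, Ifi27l2a and Isg15 did not overlap between genotypes, which 16.0% of all genes tested did in that direction. None of the 8 genes tested there passed edgeR's test (unadjusted p was under 0.05 for Irf7 alone), against 5 of 9841 genes, 0.0508%, all higher in Mat KO. Ifitm1 had 1692 and 1626 CPM in Mat KO stem-marker cells against 1783 and 1514 CPM in WT stem-marker cells, which overlap (log2 fold change 0.06, SE 0.14). Ifitm2 had 598 and 604 CPM in Mat KO stem-marker cells against 693 and 671 CPM in WT stem-marker cells and did not overlap, as 22.3% of all genes tested did in that direction. Ifitm3 had 1033 and 727 CPM in Mat KO stem-marker cells against 925 and 1179 CPM in WT stem-marker cells, which overlap.

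**Figure D4:**
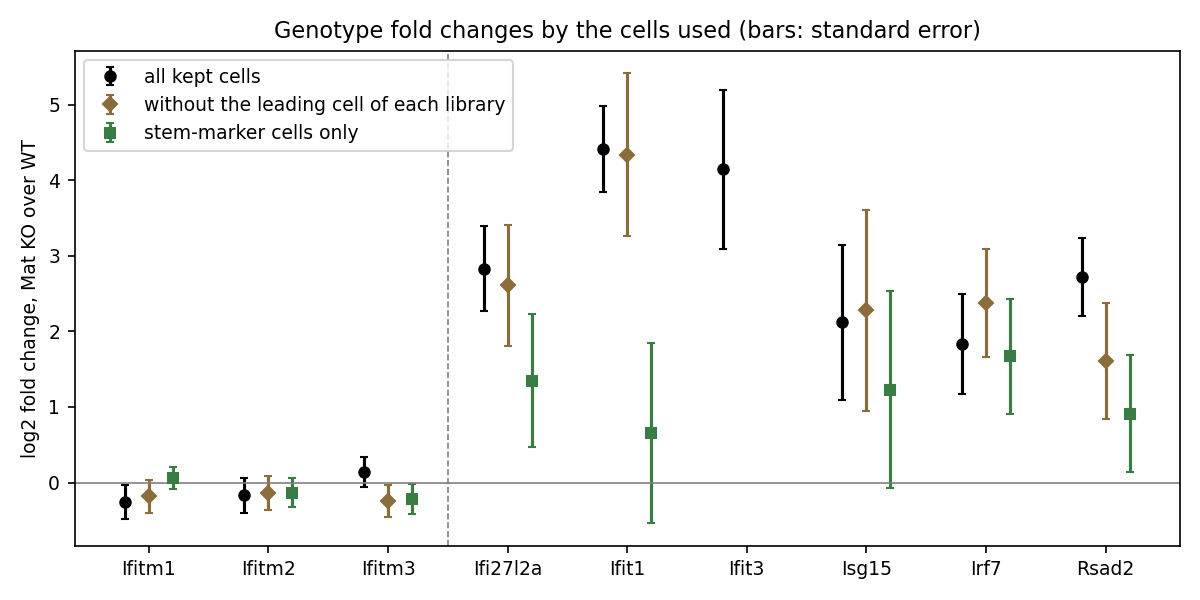
Log2 fold changes of Mat KO over WT with standard errors by edgeR (2 libraries each) for all kept cells, for library sums without each gene's leading cell, and for stem-marker cells. Ifit1 stands at 4.42 in all kept cells and 0.65 in stem-marker cells; Ifit3 has no point where both WT libraries were at 0 UMIs or where it was not tested.

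The share of cells with a UMI gave the same order for some genes. Ifi27l2a was detected in 22 and 24 cells of the Mat KO libraries, against 18 and 8 cells of the WT libraries. Rsad2 had UMIs in 29.5% and 29.2% of cells in Mat KO libraries, against 12.5% and 8.33% in WT libraries. The exact (Clopper-Pearson) 95% intervals were 16.8% to 45.2% and 16.95% to 44.1% for the Mat KO libraries and 4.73% to 25.2% and 2.32% to 19.98% for the WT libraries. At equal depth, with each cell thinned to 8877 UMIs and 19 shallower cells left out, Rsad2 had an expected share of 13.8% and 20.1% in Mat KO libraries, against 7.30% and 6.68% in WT libraries. At that depth all 6 inducible genes had both Mat KO libraries above both WT libraries, and 14.3% of all genes tested did so. As found it held for 4 of the 6, and for 4.63% of all genes tested, with 42.4% lower in both Mat KO libraries, the others being Isg15 and Irf7, whose WT replicate 2 had 11 and 15 positive cells of 48. Ifitm2 and Ifitm3 had both Mat KO libraries below both WT libraries at equal depth, as did 24.4% of all genes tested. With 2 libraries against 2, the exact permutation test cannot go below p = 0.333, which each of the 6 inducible genes reached at equal depth. In stem-marker cells at equal depth the expected share of Rsad2 was 15.6% and 20.8% in Mat KO libraries, against 8.16% and 8.90% in WT libraries, and 14.2% of all genes did not overlap in that direction.

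Between cells of the same library, Ifitm1 followed the stem markers and Ifi27l2a did not. Ifitm1 had 1692 and 1626 CPM in stem-marker cells of Mat KO libraries and 1783 and 1514 CPM in those of WT libraries, against 87.7, 206, 81.6 and 199 CPM in the other cells of Mat KO replicates 1 and 2 and WT replicates 1 and 2. It had a UMI in 145 of 145 stem-marker cells against 33 of 43 other cells, and 96.3% of its UMIs lay in stem-marker cells. With library as a block, the log2 fold change of stem-marker over other cells was 3.64 (SE 0.30, edgeR adjusted p = 2.48e-07). Of 8397 genes tested, 8.17% passed (4.42% higher and 3.75% lower in stem-marker cells), and 2 of the 8 genes of this group that were tested did so. Ifi27l2a was the other, lower in stem-marker cells with a log2 fold change of -3.83 (SE 0.40, edgeR adjusted p = 4.91e-06). It had 31.0 and 32.4 CPM in stem-marker cells of Mat KO and 19.7 and 5.98 CPM in those of WT, against 291, 1206, 265 and 47.3 CPM in the other cells of the same libraries in that order. Both genes differed in the same direction in 4 of 4 libraries. Ifi27l2a had a UMI in 51 of 145 stem-marker cells and in 21 of 43 other cells. Single cells held 234 of 262 and 271 of 680 of its UMIs in other cells of Mat KO replicates 1 and 2. In other cells of WT replicates 1 and 2 they held 72 of 143 and 27 of 51. A fit without leading cells was not run for this comparison.

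Ifitm2 had a log2 fold change of 0.72 (SE 0.24, edgeR adjusted p = 0.0780) and Ifitm3 one of 0.76 (SE 0.37, edgeR adjusted p = 0.255) in stem-marker over other cells. Ifitm3 was higher in stem-marker cells of 3 libraries and lower in Mat KO replicate 2, with 727 CPM in stem-marker cells against 1362 CPM in other cells. Over both genotypes, 87.7%, 82.5%, 89.4% and 61.2% of the UMIs of Ifit1, Ifit3, Ifi27l2a and Rsad2 lay in the 43 other cells. Of these genes, Ifit1 (adjusted p = 0.244 by edgeR) and Rsad2 did not pass and Ifit3 was not tested. In WT libraries other cells held 3 and 1 Ifit1 UMIs, against 18 and 22 in stem-marker cells. They held 0 and 0 Ifit3 UMIs against 1 and 12, and 1 and 0 Rsad2 UMIs against 35 and 55. For Irf7 and Isg15 31.4% and 45.5% lay in other cells. Across cells, the Spearman correlation of Ifitm1 CPM with the share of UMIs in stem markers was 0.68 and 0.41 in Mat KO libraries and 0.71 and 0.68 in WT libraries, over 44 to 48 cells that share a library and its depth. For Ifi27l2a CPM it was -0.12 and -0.16 in Mat KO libraries and -0.04 and -0.21 in WT libraries.

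**Figure D5:**
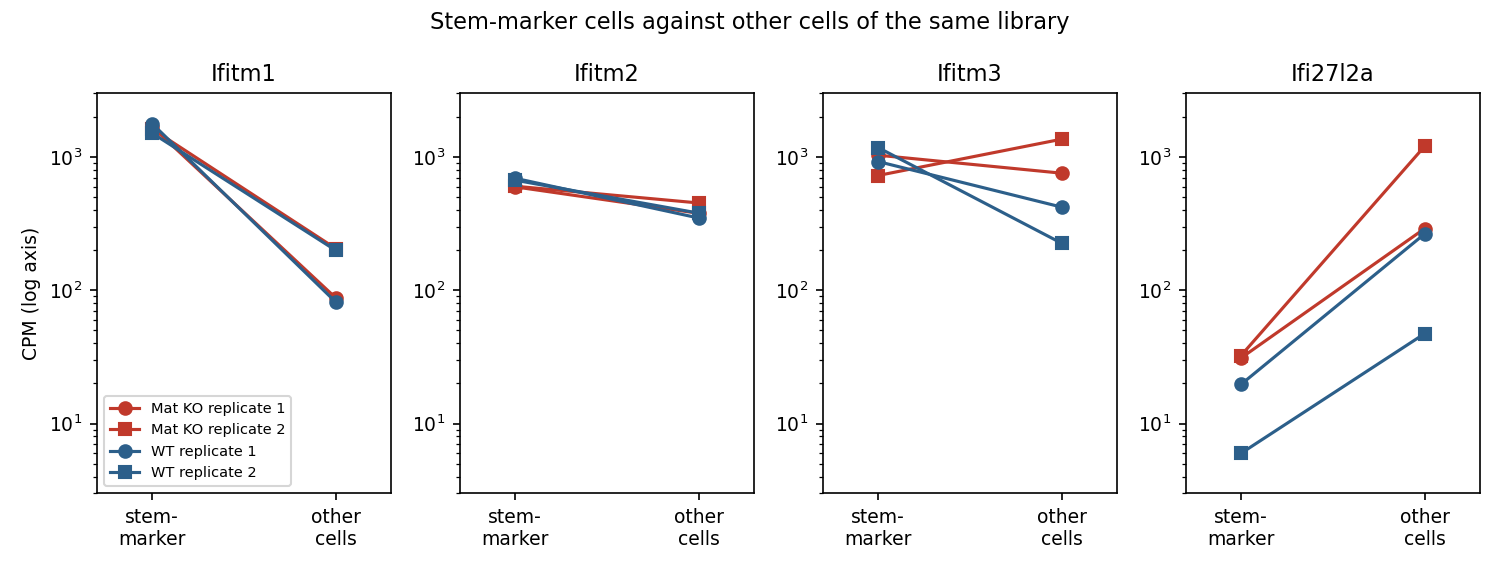
CPM on a log axis in stem-marker cells and in other cells of the same library, with a line joining the 2 values of a library. Ifitm1 falls from left to right and Ifi27l2a climbs in all 4 libraries, and Ifitm3 goes either way.

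The difference of Ifit1 between cell classes itself differed by genotype, and so did the make-up of the other cells. Of their UMIs, 0.906% and 1.15% in Mat KO libraries and 0.417% and 0.0477% in WT libraries were of granulocyte or monocyte markers, and 0.0555% and 0.0200% in Mat KO libraries against 0.000556% and 0.00677% in WT libraries were of T and NK markers. Among the T and NK markers, Ccl5 had 313 UMIs in barcode 22 of Mat KO replicate 1 and 92 in barcode 47 of Mat KO replicate 2. Erythroid markers held 0.351% in the other cells of WT replicate 2 and at most 0.0271% in those of the other 3 libraries. In Mat KO, Ifit1 had 9.01 and 16.6 CPM in stem-marker cells against 154 and 619 CPM in other cells, where single cells held 89 of 139 and 348 of 349 UMIs. In WT it had 6.81 and 10.1 CPM in stem-marker cells against 5.56 and 0.928 CPM in other cells. The interaction (stem-marker over other cells, Mat KO minus WT) was -6.26 on the log2 scale (SE 1.14, edgeR adjusted p = 0.0322), and 3 of 8397 genes passed that test, 0.0357% (0.0119% above 0 and 0.0238% below). Rsad2 had an interaction of -6.86 (SE 1.55, edgeR adjusted p = 0.167) and Ifitm3 one of -1.93 (SE 0.53, edgeR adjusted p = 0.454). The part of the make-up in these values was not tested. Stem-marker minus other CPM was below 0 in both Mat KO libraries and above 0 in both WT libraries for Ifit1, Rsad2 and Isg15 among the genes tested, and for 5.29% of all 8397 genes.

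Cells with markers of another lineage had their own pattern. A granulocyte or monocyte marker cell had at least 1% of its UMIs in that list, as did 2 and 3 cells of the Mat KO libraries and 2 and 0 cells of the WT libraries. By the same limit 3 and 1 cells of the Mat KO libraries and 3 and 0 cells of the WT libraries were B-lymphoid marker cells. The remaining cells are called lineage-low, apart from 2 erythroid marker cells. Ifitm1 had 8.05 and 242 CPM in granulocyte or monocyte marker cells of Mat KO and 115 CPM in those of WT replicate 1, against 1199, 1317 and 1690 CPM in lineage-low cells of the same libraries. With library as a block the estimate was -4.20 on the log2 scale (edgeR adjusted p = 1.44e-04), and the call was lost when Mat KO replicate 1 (-2.99, adjusted p = 0.334) or WT replicate 1 (-4.28, adjusted p = 0.0994) was left out. Ifi27l2a had 941, 1253 and 754 CPM in granulocyte or monocyte marker cells against 31.2, 136 and 19.7 CPM in lineage-low cells. The estimate was 4.67 on the log2 scale, and it passed when any 1 library was left out. Single cells held 234 of 234 and 209 of 238 of these Ifi27l2a UMIs in Mat KO replicates 1 and 2, and 72 of 72 in WT replicate 1. Ifitm3 had 2285, 3779 and 1780 CPM in granulocyte or monocyte marker cells against 753, 598 and 890 CPM in lineage-low cells, which do not overlap. It missed the threshold, with a log2 fold change of 1.65 (edgeR adjusted p = 0.175), and passed with RLE scaling, DESeq2 and both other class limits. Of 5635 genes tested 1.9% passed (1.14% higher and 0.763% lower). Of the 9 genes, 4 passed the filter on low counts and 2 of these passed the test.

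In B-lymphoid marker cells Ifitm1 had 11.2 and 0 CPM in Mat KO and 91.6 CPM in WT replicate 1, and its log2 fold change over lineage-low cells was -5.92. Ifitm3 had 207 and 132 CPM in B-lymphoid marker cells of Mat KO and 57.7 CPM in those of WT replicate 1, a log2 fold change of -3.13 (edgeR adjusted p = 0.00326). Ifi27l2a was higher by 3.44 (edgeR adjusted p = 0.00306), but only 1 cell gave Mat KO replicate 2 its 7155 CPM, and the call was lost without any of the 3 libraries that hold such cells. The Ifitm3 call was lost without Mat KO replicate 1 (adjusted p = 0.276) or WT replicate 1 (adjusted p = 0.430). The Ifitm1 call was kept without any 1 library. In that comparison 1.63% of 5635 genes passed, 0.142% higher and 1.49% lower. The median log2 fold change of all genes was -0.94 in it and -0.86 in the granulocyte or monocyte comparison, so values are to be read against these. Ifitm6, the Ifitm gene next to Ifitm3, had a log2 fold change of 6.73 in granulocyte or monocyte marker cells, which passed. It had 0 UMIs in the B-lymphoid marker cells of all 3 libraries, so no fold is given there, against 153, 3.89 and 6.09 CPM in lineage-low cells of Mat KO replicates 1 and 2 and WT replicate 1.

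The rest of the interferon pathway was followed through 91 other genes. Of 10 interferon ligand genes, Ifnb1 alone had UMIs, 5 and 2 in Mat KO against 3 and 1 in WT, and none was tested. The receptor genes Ifnar1 and Ifnar2 were present in all libraries, at 159 and 163 UMIs of Ifnar1 in Mat KO against 195 and 102 UMIs in WT. Of 74 genes tested by genotype, 50 were higher and 24 lower in Mat KO, with a median log2 fold change of 0.56, and 1 passed. Over all 10663 genes tested 5271 were higher and 8 passed, and 834 had an unadjusted p under 0.05, as did 16 of the 74. The pathway gene that passed was Cxcl10, an interferon-induced chemokine, with 235 and 376 UMIs in Mat KO against 4 and 8 UMIs in WT (log2 fold change 6.49, SE 0.57, edgeR adjusted p = 0.00174). Single cells held 227 of the 235 Cxcl10 UMIs of Mat KO replicate 1 (barcode 22) and 346 of the 376 of Mat KO replicate 2 (barcode 47). Ifit3b, next to Ifit3 and close to it in sequence so that reads may be split between them, had 27 and 81 UMIs in Mat KO against 1 and 1 in WT (edgeR adjusted p = 0.119). None of the 8 receptor and kinase genes, 8 transcription factor genes, 8 sensor and adaptor genes or 6 negative regulator genes tested passed, and unadjusted p was under 0.05 for 3, 2, 1 and 2 of them. Ifngr1, a receptor chain for interferon gamma, had 205 and 192 CPM in Mat KO libraries against 67.5 and 101 CPM in WT (log2 fold change 1.26, edgeR adjusted p = 0.304).

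Further pathway genes come next by p on the higher side or lead the lower side. Slfn2, an interferon-induced growth regulator, had 616 and 85 UMIs in Mat KO against 71 and 85 UMIs in WT (edgeR adjusted p = 0.222). Ifih1, a sensor of viral RNA, had 82.1 and 78.6 CPM in Mat KO libraries against 35.2 and 27.7 CPM in WT (edgeR adjusted p = 0.470). Il10rb, a receptor chain shared by the interleukin 10 and lambda interferon receptors, had 6.31 and 6.22 CPM in Mat KO libraries against 35.5 and 23.1 CPM in WT (edgeR adjusted p = 0.572). The DNA sensor gene Mb21d1, the MHC class I light chain gene B2m and the stem cell surface gene Ly6a had log2 fold changes of -0.86, -0.21 and -0.46, with edgeR adjusted p of 0.723, 0.757 and 0.810. Between stem-marker and other cells, 5 of 69 pathway genes passed, a share near the 8.17% of all genes: Socs3, an inhibitor of cytokine signalling, was higher, with a log2 fold change of 2.78, and Ifitm6, Slfn2, Irf8 and Ly6e were lower, at -5.88, -3.12, -2.66 and -1.18.

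On the mean over libraries, correlations across cells were higher between Ifitm genes than between inducible genes, as a description, but not in every library. The mean over libraries of the Spearman correlation of CPM across cells was 0.33 for Ifitm1 with Ifitm2, 0.51 for Ifitm1 with Ifitm3 and 0.36 for Ifitm2 with Ifitm3. By library these ran from 0.10 to 0.47, 0.20 to 0.78 and 0.18 to 0.47, each lowest in Mat KO replicate 2. Ifit1 with Ifit3 ran from -0.04 to 0.52, with 0.43 in Mat KO replicate 2. Over the 15 inducible pairs the median was 0.12, with Ifit1 and Ifit3 highest at 0.32, and over the 18 mixed pairs it was 0.02. In stem-marker cells these medians were 0.17, 0.04 and 0.04 for Ifitm, inducible and mixed pairs. In those of Mat KO replicate 2 alone, the Ifitm pairs had -0.01, 0.16 and 0.01, in the order above. Low counts in the inducible genes limit these values, and inducible UMIs had a Spearman correlation with the UMIs of a cell of 0.07 to 0.37 by library. Among 6693 genes found in at least 20% of cells, those most like the summed Ifitm CPM over the cells of 4 libraries were Lmo2 (mean Spearman 0.45), Lst1 (0.44), Pdzk1ip1 (0.43), Hlf (0.43) and Nceh1 (0.42). Hlf is among the stem markers. Those most like the summed inducible CPM were Evi2a (0.28), Oasl2 (0.27), Ppp1r15b (0.27), Cox4i1 (0.25) and Szrd1 (0.25), of which Oasl2 is interferon-induced.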

How the data were processed

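Polyadenylated RNA of single sorted bone marrow cells was profiled with a modified STRT-seq protocol and paired-end sequencing, as the labels describe. TopHat2 2.0.12, HTSeq and mm10 are listed in the submitters' processing notes, without order or role. The authors deposited whole UMI counts for every gene and barcode, neither normalized nor filtered for cells. The sources used here do not say how reads of similar genes were assigned. No columns of other samples were present.

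Cells with at least 1000 detected genes were kept and summed per library (1900319, 1768647, 3183279 and 3253608 UMIs), since cells are not replicates. Sums were tested with edgeR 4.0.16 (R 4.3.3; quasi-likelihood, TMM, filterByExpr, Benjamini-Hochberg at 0.05), on the counts as deposited, without a replicate block; class comparisons had library as a block. DESeq2 1.42.0, RLE scaling, other filters, equal depth (8877 UMIs per cell), other cell sets and single libraries left out were alternatives. Shares of cells were tested over libraries by exact permutation, two-sided. On simulated data of the same size the genotype test missed most changes of the smallest fold and recovered most of the largest. It made 18 false calls among 10167 genes. These were a larger share of all its calls than the 0.05 aimed for, so single calls are uncertain. The granulocyte or monocyte comparison recovered few changes. Spike-in rows were left out, and doublets were not called, since each cell was picked by hand. Nothing in the labels says that libraries came from separate mice, so p-values may rest on technical spread alone. All 4 shared a flow cell and lane.

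The genes described, the pathway lists and the marker lists were chosen with earlier results of these data known, and the stem-marker class after seeing the data. Named pathway genes were those past the genotype test and up to 4 of smallest p in each direction; those past the test between cell classes, and the genes leading single cells, were named after their values were seen. Promoter sequences are from RefSeq (GRCm38.p6) and gene positions from GENCODE M21.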

Additional observations from a re-analysis of the deposited data

Results flagged for a closer look

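For 4 inducible genes the difference between stem-marker and other cells ran in opposite directions in the genotypes. These genes were lower in stem-marker cells of both Mat KO libraries and higher in those of both WT libraries. They were Ifit1, Rsad2, Isg15 and Ifit3, of which Ifit3 was not among the 8397 genes tested. Of all 8397 genes tested, 5.29% ran this way. For Isg15 in Mat KO replicate 1 the values were 15.01 CPM in stem-marker cells and 15.5 CPM in other cells, and other cells of the WT libraries held 0 to 3 UMIs of each gene. The log2 interaction (stem-marker over other cells, Mat KO minus WT) was -6.26 for Ifit1 (SE 1.14, edgeR adjusted p = 0.0322), -6.86 for Rsad2 (SE 1.55, edgeR adjusted p = 0.167) and -3.20 for Isg15 (SE 2.70, edgeR adjusted p of 1), so that only Ifit1 passed. For Ifit3 the difference was not tested, since its counts were too low for the fit. It was -60.1 CPM in Mat KO replicate 1, with 2.002 CPM in stem-marker cells against 62.1 CPM in other cells. In Mat KO replicate 1 and Mat KO replicate 2 single cells outside the stem-marker class held 60.1% and 94.3% of the Ifit1 UMIs. In WT replicates 1 and 2 single cells held 17 of 18 and 20 of 22 Ifit1 UMIs of the stem-marker cells. They held 1 of 1 and 12 of 12 of the Ifit3 UMIs there, and 7 of 8 and 8 of 18 of the Isg15 UMIs. The part of such single cells in the interaction was not tested.

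Data outside the comparisons also held Ifitm UMIs. The 4 barcodes of Mat KO replicate 1 that missed the minimum of 1000 detected genes held 5 Ifitm UMIs, and the 192 barcodes without cells held 4 in all, each above the limit of 3 counts.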

How the results depend on the processing

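Ifit1 passed the genotype test in 12 of 16 settings. The count of the 9 genes past it, 1 in all kept cells, was 4 with no filter on low counts, 3 by DESeq2, and 0 in cells with at least 2000 genes, without each gene's leading cell, and in stem-marker cells at either limit. It was 1 to 2 with single libraries left out. The leading Ifit1 cell of Mat KO replicate 1 had 1927 genes, so the limit of 2000 removes it. All genes past the test, 8 in all kept cells, were 149 with no filter, 109 by DESeq2, 3 at equal depth, 5 in lineage-low cells, 5 with at least 2000 genes, 0 without leading cells, 5 in stem-marker cells, 1 at the lower stem limit, and 17 (without WT replicate 2) to 123 (without Mat KO replicate 2) with single libraries left out. Other pathway genes, 1 in all kept cells, were 5 with no filter, 3 by DESeq2, 0 without leading cells, 0 in stem-marker cells at either limit, and 1 to 3 with single libraries left out.

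Replicate numbers paired nothing: the correlation of same-numbered deviations was -0.02. With a replicate block 4 of the 9 genes, 109 genes in all and 6 other pathway genes passed.

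The granulocyte or monocyte count of 2 was 1 without leading cells and 1 to 2 with single libraries left out. The B-lymphoid count of 3 was 1 without leading cells and 1 to 3 with single libraries left out, and the 2% limit left no B-lymphoid cells to fit. The stem-marker count of 2 was 4 with no filter and 2 to 3 with single libraries left out. The gap in the log2 ratio of inducible over Ifitm UMIs was 3.04. It was 3.21 in lineage-low cells, 2.70 without the leading cell of each gene and 2.75 to 3.32 with single libraries left out. In stem-marker cells it was 1.29, and 1.88 there without leading cells. At the lower limit it was 1.81, and 1.35 there without 1 cell (chosen after seeing the data). The count of inducible genes whose share of cells did not overlap, 4 as found beside 4.63% of all genes, was 4 to 6 with single libraries left out.

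The values that changed sign under an alternative all belonged to values that did not pass. By genotype, Ifitm1 was 0.059 in stem-marker cells, and Ifitm3 was -0.34 at equal depth, -0.38 in lineage-low cells, -0.24 without leading cells and -0.21 in stem-marker cells. In granulocyte or monocyte marker cells, Ifitm2 was 0.40 with RLE scaling and by DESeq2, 0.21 at the 0.5% limit, 0.46 without leading cells, and -0.26 to 0.21 with single libraries left out, with the sign changed without Mat KO replicate 1 (0.21) and without WT replicate 1 (0.02). In stem-marker over other cells, Isg15 was -0.29 without WT replicate 1 and -0.28 without WT replicate 2. There Rsad2 was 0.61 by DESeq2, 0.0030 with no filter, and -1.22 to 1.68 with single libraries left out, with the sign changed without Mat KO replicate 1 (1.68) and without Mat KO replicate 2 (1.296). The causes were not tested. Of the other values of single genes, 216 kept their direction and side of the threshold, 21 newly passed and 12 no longer passed. Ifit1, Ifit3, Isg15, Irf7 and Rsad2 had UMIs in 1 to 15 cells per library.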
